A study of Mus musculus with 12 samples.

Results

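The 10 genes described here are Neat1, Malat1, Kcnq1ot1, Tbrg3, Zfp488, Dclre1c, Slc5a3, Akap9, Nktr and Ubn2, out of 26608 gene rows counted in mouse lung cells by RNA sequencing. They were chosen by their read counts, which were higher in interstitial macrophages (IM) labelled as Hif1a-deleted than in control IM. The IM difference is therefore a description with no test, and the test of the same difference comes from nonclassical monocytes (NCM), which were not used in the choice. All 10 genes had a row in the 12 count tables, and all 10 were among the 14254 genes with enough counts to be tested. The working name of the set is nuclear RNAs. By annotation, 4 of the 10 are noncoding, 3 of which (Neat1, Malat1 and Kcnq1ot1) are known to stay in the nucleus, and the other 6 are messenger RNAs. Where in the cell any of these RNAs lay was not measured.

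The cells came from lungs of C57Bl/6 mice kept for 3 weeks in hypoxia with a weekly dose of SU5416, an inhibitor of VEGF receptors, and about 250 cells were sorted per library. Deleted animals are given as Cx3cr1cre;Hif1αΔ/Δ, with Cre driven from the locus of the chemokine receptor Cx3cr1, and control animals as Hif1αflox/flox without Cre. The floxed Hif1a gene, the hypoxia and the SU5416 are thus shared by all 4 groups, and Cre and the deletion cannot be told apart. Each of the 4 groups (control and deleted, in IM and in NCM) has 3 libraries, named here by cell type and label number. The labels give no age and do not say whether each number is 1 animal, and p-values thus measure the spread between libraries, which may be technical. In these small pools of cells, fewer cells of a type and less RNA per cell cannot be told apart.

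Gene counts summed to between 5332600 and 14099509 per library. C1qa, a complement gene of tissue macrophages, stood at 875 ± 68.4 CPM (gene counts scaled to 1000000 per library after TMM, SD, n = 3) in IM control and 65.3 ± 50.4 CPM in NCM control. Treml4, a marker of nonclassical monocytes, stood at 323 ± 85.4 CPM in NCM control and 3.74 ± 2.82 CPM in IM control. Both were thus higher where the labels place them. Nr4a1 and Ace, also monocyte markers, were higher in NCM control too (2479 ± 607 and 3291 ± 653 CPM). They still stood at 804 ± 150 and 371 ± 182 CPM in IM control. Cx3cr1, another listed monocyte marker, went the other way, at 392 ± 66.1 CPM in IM control and 219 ± 72.6 CPM in NCM control. So did Csf1r, listed for both cell types (1738 ± 67.9 and 1217 ± 280 CPM). Hif1a was counted at between 150.1 and 246 CPM over the 12 libraries. A count over the whole gene does not measure the excision of a floxed part.

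Long noncoding RNAs that remain in the nucleus build or decorate nuclear bodies and chromatin. Neat1 is the scaffold of paraspeckles, Malat1 is enriched in nuclear speckles beside splicing factors, and Kcnq1ot1 is transcribed antisense within Kcnq1 from the paternal chromosome and silences neighbouring imprinted genes. A library of total RNA also holds unspliced RNA, and reads from introns or from between genes fall in no annotated exon. HTSeq, the counting program, reports reads that match no annotated exon in a row of their own, and they are called non-exonic reads here. The strand setting of the counting is not given, so this row may also hold reads over an exon but on the other strand. What its reads came from was not measured.

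The promoters of Malat1, Kcnq1ot1 and Tbrg3, which are noncoding members, and of Zfp488, whose level followed the non-exonic share most closely, are shown here. That of Neat1 is not shown. Each window runs from 250 bases before to 50 bases after the start site, 5′ to 3′ on the gene's own strand, from RefSeq on GRCm38.p6. The capitals mark ACGTG or GCGTG, the cores of the hypoxia response element bound by HIF, or their reverse complements CACGT and CACGC. The windows lie on the minus strand at chr19:5802623-5802922 (Malat1), chr7:143296498-143296797 (Kcnq1ot1), chr15:82898412-82898711 (Tbrg3) and chr14:33978715-33979014 (Zfp488).
Malat1: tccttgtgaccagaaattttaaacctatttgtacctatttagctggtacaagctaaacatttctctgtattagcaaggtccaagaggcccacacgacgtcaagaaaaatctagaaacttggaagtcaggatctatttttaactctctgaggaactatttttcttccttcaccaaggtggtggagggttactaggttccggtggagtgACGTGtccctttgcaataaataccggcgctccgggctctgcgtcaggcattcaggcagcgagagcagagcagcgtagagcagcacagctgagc
Kcnq1ot1: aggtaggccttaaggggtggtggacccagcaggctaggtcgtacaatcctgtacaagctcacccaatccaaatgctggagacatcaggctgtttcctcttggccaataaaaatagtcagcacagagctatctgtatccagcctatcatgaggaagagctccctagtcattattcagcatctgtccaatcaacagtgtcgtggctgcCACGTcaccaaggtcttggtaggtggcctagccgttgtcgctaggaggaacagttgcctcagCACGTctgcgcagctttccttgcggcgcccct
Tbrg3: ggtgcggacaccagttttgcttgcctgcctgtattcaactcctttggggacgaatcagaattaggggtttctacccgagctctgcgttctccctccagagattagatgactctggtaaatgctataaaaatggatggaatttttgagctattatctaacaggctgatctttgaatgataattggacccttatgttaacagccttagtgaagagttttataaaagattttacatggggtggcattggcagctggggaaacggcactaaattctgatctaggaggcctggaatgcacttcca
Zfp488: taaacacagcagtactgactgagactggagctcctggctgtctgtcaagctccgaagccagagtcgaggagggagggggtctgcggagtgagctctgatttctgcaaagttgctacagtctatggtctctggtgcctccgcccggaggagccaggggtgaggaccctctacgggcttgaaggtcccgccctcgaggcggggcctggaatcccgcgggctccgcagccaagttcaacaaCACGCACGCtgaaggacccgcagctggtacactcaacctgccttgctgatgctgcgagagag
Malat1 had 1 match, 43 bases before its start. Kcnq1ot1 had 2 matches, 44 bases before and 19 bases after its start, and Zfp488 had 2 matches that share 1 base, starting 12 and 8 bases before its start. The Tbrg3 window held neither core. Of the 9 members with a window in the table, 8 held at least 1 match, against 43.8% of 27025 windows of all genes and 61.2% of 9727 windows of genes tested. A match is a string of letters, and binding of HIF was not measured.

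Neat1 lies on GRCm38 chr19:5824708-5845478, minus strand, as 1 exon block of 20771 bases in GENCODE M21. It stood at 102, 91.8 and 95.9 CPM in IM648, IM659 and IM660 (control) and at 431, 381 and 1248 CPM in IM649, IM650 and IM661 (deleted). All 3 deleted libraries were above all 3 controls, and IM661 was far above the other deleted libraries. The log2 fold change was 2.83 (SE 0.40) over all libraries and 2.01 without IM661. In NCM, Neat1 stood at 314, 209 and 266 CPM in the control libraries NCM648, NCM657 and NCM659 and at 435, 387 and 259 CPM in the deleted libraries NCM649, NCM650 and NCM661. The NCM groups overlapped, with NCM661 below 2 of the controls. Values of all members below follow the same order of libraries, and fold changes are deleted against control from 1 edgeR fit to all 12 libraries.

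Malat1 lies 22036 bases from Neat1 at chr19:5795690-5802672, minus strand, also as 1 exon block. It stood at 17311, 8743 and 16159 CPM in IM control and 39216, 42325 and 53269 CPM in IM deleted libraries. The IM groups did not overlap, and the log2 fold change was 1.68 (SE 0.29). In NCM it stood at 40077, 21724 and 26861 CPM in control and 39104, 36564 and 34635 CPM in deleted libraries. Here the highest library was a control, NCM648. Malat1 alone took between 0.862 and 1.68% of all gene counts in IM control libraries and between 4.34 and 4.57% in IM deleted ones. Neat1 counts were 2.34% of Malat1 counts in IM661 and between 0.591 and 1.11% in the other 11 libraries, so the high Neat1 value of IM661 was not shared in proportion by Malat1.

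Kcnq1ot1 spans chr7:143203458-143296549, minus strand, inside Kcnq1 on the opposite strand. It stood at 139.9, 77.4 and 172 CPM in IM control and 816, 912 and 378 CPM in IM deleted libraries. All deleted IM libraries lay above the controls, with IM661, the highest library for Neat1 and Malat1, now the lowest of the 3. The IM log2 fold change was 2.43 (SE 0.36). In NCM, Kcnq1ot1 stood at 194, 199 and 184 CPM in control and 554, 512 and 308 CPM in deleted libraries. These groups did not overlap either, and the lowest deleted library was NCM661.

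Tbrg3, a noncoding gene whose full name is transforming growth factor beta regulated gene 3, lies within Tcf20 on the same strand at chr15:82890483-82898461, minus strand (RefSeq). It stood at 8.96, 6.78 and 13.5 CPM in IM control, against 63.1, 63.7 and 72.7 CPM in IM deleted. The IM groups were well apart, with a log2 fold change of 2.77 (SE 0.48). In NCM it stood at 105, 96.9 and 58.4 CPM in control and 73.0, 132 and 29.1 CPM in deleted libraries. Both the highest and the lowest NCM library were deleted ones, NCM650 and NCM661. Unspliced Tcf20 RNA would cross this gene, so the source of its reads is uncertain. The counts of Tcf20 itself were 239 ± 24.2 CPM in IM control and 274 ± 38.8 CPM in IM deleted (log2 fold change 0.19, edgeR adjusted p = 0.969).

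**Figure D1:**
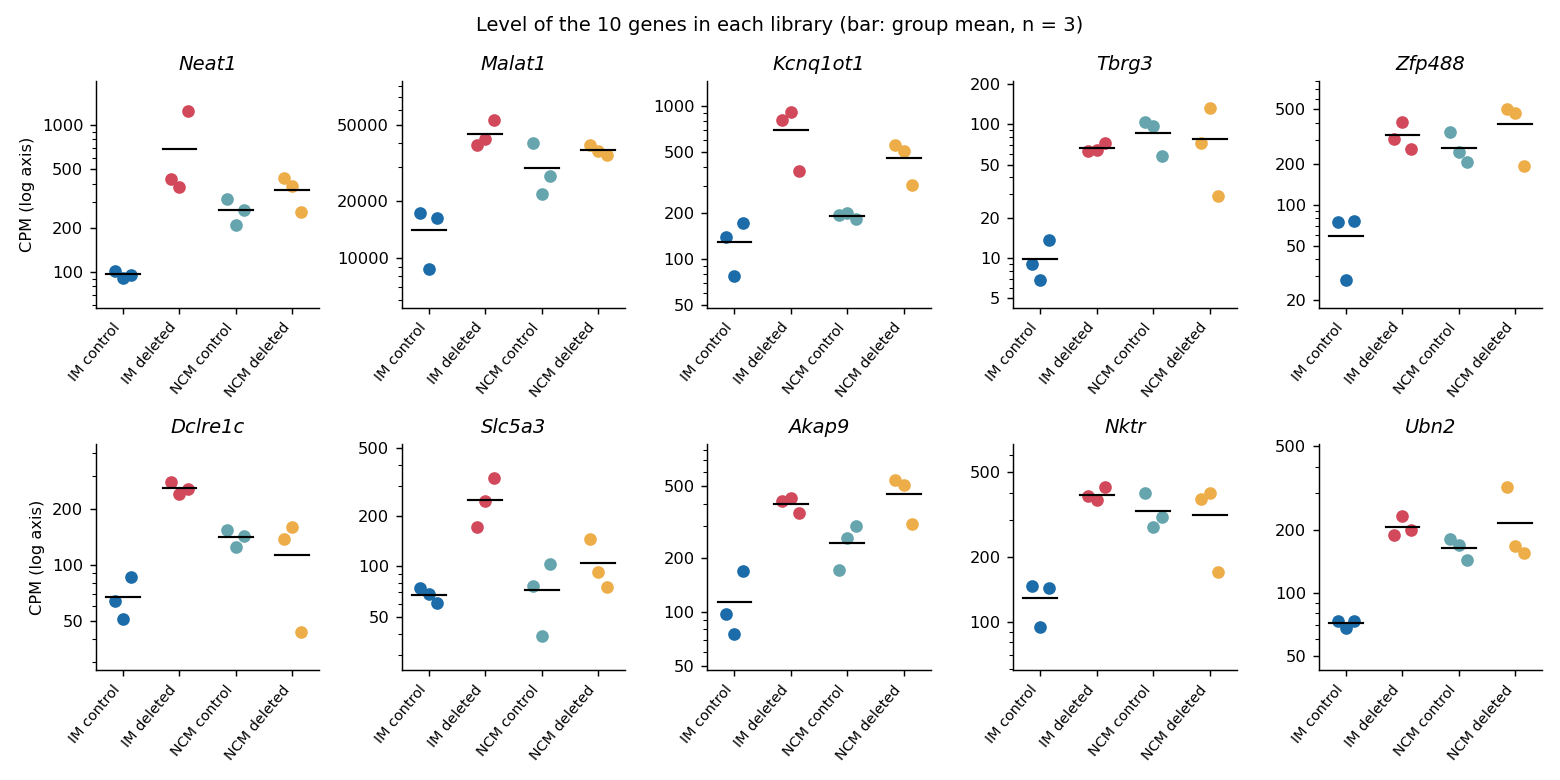
CPM on a log axis of each member in each of the 12 libraries (points), with the group mean of 3 libraries as a bar. The mean of IM control is the lowest of the 4 for all 10 genes, and the 2 NCM groups overlap for 8 of the 10 genes, all but Kcnq1ot1 and Akap9.

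The 6 protein-coding members were also apart in IM, as the choice of genes requires. Zfp488, a zinc finger protein known from oligodendrocyte differentiation, lies at chr14:33967070-33978764, minus strand. It stood at 74.6, 28.2 and 75.6 CPM in IM control and 305, 404 and 256 CPM in IM deleted libraries. IM659 was the lowest control and IM650 the highest deleted library, and the log2 fold change was 2.44 (SE 0.41). In NCM it stood at 339, 243 and 205 CPM in control and 504, 471 and 192 CPM in deleted libraries. NCM661 was the lowest of the 6, and the NCM groups overlapped.

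Dclre1c encodes Artemis, the nuclease that opens DNA hairpins in V(D)J recombination and trims ends in nonhomologous end joining (chr2:3424131-3464130, plus strand). It stood at 63.8, 51.3 and 85.6 CPM in IM control and 279, 239.7 and 257 CPM in IM deleted libraries, a log2 fold change of 1.95 (SE 0.38). The IM groups were far apart and tight. In NCM it stood at 153, 125 and 143 CPM in control and 138, 159 and 43.3 CPM in deleted libraries. The first 2 deleted libraries lay within or just above the control range, while NCM661 lay far below it.

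Slc5a3 encodes a sodium-coupled transporter of myo-inositol, an osmolyte (chr16:92058322-92087473, plus strand). It stood at 74.0, 68.7 and 60.7 CPM in IM control and 170.4, 243 and 333 CPM in IM deleted libraries, with IM661 highest. The log2 fold change was 1.87 (SE 0.37). In NCM, levels were 76.8, 38.7 and 103 CPM in control and 145, 92.3 and 75.4 CPM in deleted libraries, which overlapped. Slc5a3 was the only member whose IM control and NCM control ranges overlapped.

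Akap9 encodes a scaffold of protein kinase A at the centrosome and Golgi (chr5:3928054-4081310, plus strand). It stood at 96.9, 75.6 and 169.8 CPM in IM control and 417, 429.9 and 354 CPM in IM deleted libraries, a log2 fold change of 1.81 (SE 0.33). In NCM it stood at 172, 259 and 301 CPM in control and 541, 509.6 and 309.9 CPM in deleted libraries. As for Kcnq1ot1, the NCM groups did not overlap, although NCM661 was only just above the highest control.

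Nktr encodes a large protein with a cyclophilin domain (chr9:121719169-121756843, plus strand). It stood at 148, 94.8 and 143 CPM in IM control and 386, 369.6 and 426 CPM in IM deleted libraries, a log2 fold change of 1.61 (SE 0.31). In NCM, Nktr stood at 402, 279 and 309.7 CPM in control and 376, 399 and 171 CPM in deleted libraries. NCM661 was again the lowest, and the groups overlapped. Ubn2 encodes a subunit of the HIRA histone chaperone complex (chr6:38433950-38524825, plus strand). It stood at 73.5, 68.3 and 73.8 CPM in IM control and 188, 232 and 200.4 CPM in IM deleted libraries, a log2 fold change of 1.53 (SE 0.28), the smallest of the 10. In NCM it stood at 180.4, 169 and 144 CPM in control and 322, 168 and 155 CPM in deleted libraries, with NCM649 alone above the control range.

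Over all genes tested, 0.239% were higher and 0.0491% were lower in IM deleted than in IM control at an edgeR adjusted p under 0.05, and the 10 members are among the 34 higher genes by choice. Likewise, all 10 had non-overlapping IM groups with the deleted group higher, as had 16.2% of all genes tested. Neither count is a result about the members. The rule names no threshold, so values just inside and outside one cannot be given. The median IM log2 fold change was 1.91 over the members and 0.07 over all genes tested. Within each sequencing lane of the IM libraries, as the lane is read from the names of the deposited data, all 10 members were higher in deleted libraries, with a median log2 difference of 1.92 in lane 5 and 1.95 in lane 7. That count follows from the IM groups not overlapping, so it cannot show whether lane matters.

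In NCM, which did not enter the choice, 0 of the 10 members passed the same edgeR test. An unadjusted p was under 0.05 for 2 of them, Kcnq1ot1 and Akap9, against 16.1% of all genes tested. DESeq2 called 1 member, Kcnq1ot1, against 6.69% of all genes, and limma-voom called 0, against 1.37%. These counts of members are near the shares over all genes. Of all genes tested, 0.0842% were higher and 0.337% were lower in NCM deleted at an edgeR adjusted p under 0.05. The member with the largest NCM difference was Kcnq1ot1, at 1.25 (95% interval 0.56 to 1.94, adjusted p = 0.1004), where the interval is the log2 fold change ± 1.96 SE. It passed edgeR's test without NCM661 (log2 fold change 1.47, adjusted p = 0.0343) and without the filter on low counts (1.36, adjusted p = 0.0449), and passed DESeq2 (1.40, adjusted p = 0.0108). The range of its adjusted p over all alternatives reached down to this last value. Akap9 followed at 0.90 (95% interval 0.27 to 1.52, adjusted p = 0.173).

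The other nuclear noncoding RNAs did not pass, at 0.45 (95% interval -0.28 to 1.19, adjusted p = 0.592) for Neat1 and 0.32 (95% interval -0.25 to 0.88, adjusted p = 0.633) for Malat1, again from edgeR. The intervals end below the IM log2 fold changes of the same genes, which chose them. Zfp488 was at 0.57 (95% interval -0.20 to 1.34, adjusted p = 0.515), Slc5a3 at 0.51 (95% interval -0.19 to 1.22, adjusted p = 0.519) and Ubn2 at 0.39 (95% interval -0.16 to 0.93, adjusted p = 0.528) by the same edgeR test. The last 3 members had fitted values below 0. These were Tbrg3 at -0.15 (95% interval -1.04 to 0.73, adjusted p = 0.909), Dclre1c at -0.31 (95% interval -1.03 to 0.41, adjusted p = 0.730) and Nktr at -0.07 (95% interval -0.66 to 0.52, adjusted p = 0.946), all by edgeR. Their signs changed when single libraries were left out. Without NCM661 the values were 0.24, 0.08 and 0.23, and without NCM648 Tbrg3 was at 0.0039 and Nktr at 0.10. Ubn2 turned to -0.03 without NCM649. Nktr turned to 0.04 without IM659 or without IM661, and to 0.08 with DESeq2's size factors, a scaling that moved the median of all genes in NCM from -0.10 to 0.04. Without NCM650, Tbrg3 was at -0.77.

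**Figure D2:**
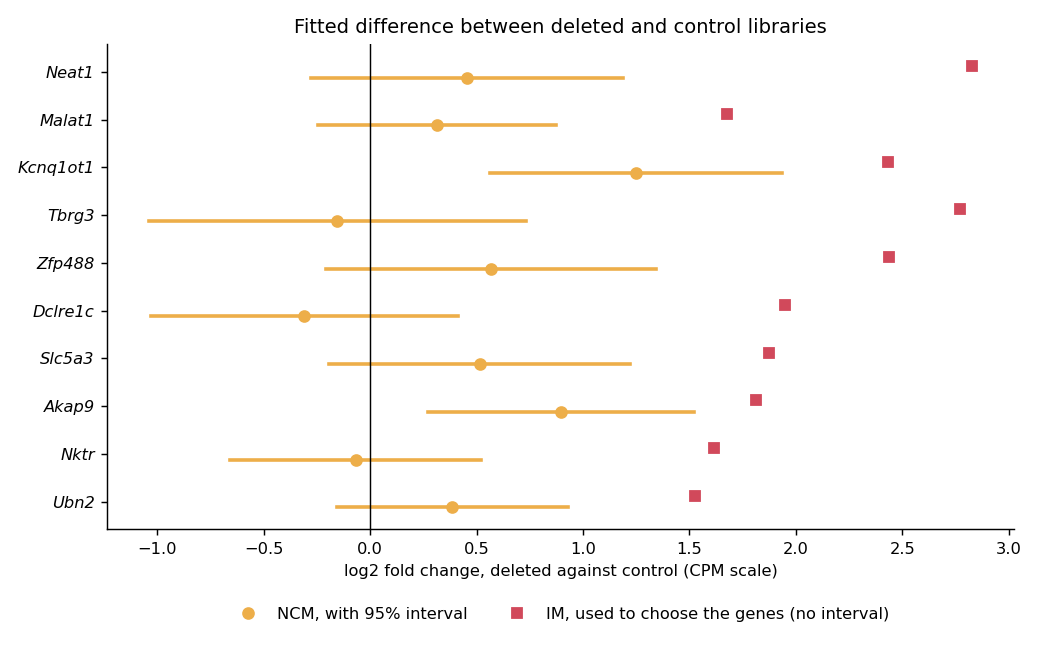
Fitted log2 fold change of deleted against control for each member, in NCM (circles, with 95% intervals of ± 1.96 SE) and in IM (squares, without intervals because these values chose the genes). Every NCM value lies to the left of the IM value, and 7 of the 10 NCM values lie above 0.

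The median NCM log2 fold change of the members was 0.42, beside -0.10 over all genes tested. NCM control and deleted libraries did not overlap on CPM, with deleted higher, for 2 of 10 members (Kcnq1ot1 and Akap9), against 5.9% of all genes tested. Within lane 6 (NCM657 and NCM659 against NCM650), all 10 members were higher in the deleted library, with a median log2 difference of 0.66. Within lane 8 (NCM648 against NCM649 and NCM661), 5 of 10 were higher, with a median of -0.01. The difference between the IM and NCM log2 fold changes had a median of 1.52 over the members and 0.19 over all genes. It holds the IM contrast that chose the members, so it was not tested.

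All IM libraries were in lanes 5 and 7 and all NCM libraries in lanes 6 and 8, so cell type and lane cannot be told apart in levels. IM control had the lowest mean level of the 4 groups for all 10 genes. IM deleted had the highest mean for 6 genes (Neat1, Malat1, Kcnq1ot1, Dclre1c, Slc5a3 and Nktr), NCM deleted for 3 (Zfp488, Akap9 and Ubn2) and NCM control for Tbrg3. The IM control libraries lay below every library of the next group in this order except for Dclre1c and Slc5a3, where the ranges overlapped. The 2 highest groups overlapped for 7 genes and were apart for Malat1, Dclre1c and Slc5a3, each with IM deleted on top. Per kilobase of exon in GENCODE M21, which may differ from the annotation used for counting, Malat1 was at 2015 ± 666 CPM per kb in IM control. Zfp488 came next at 13.8 ± 6.31 CPM per kb, Neat1 was at 4.65 ± 0.256 and Kcnq1ot1 was lowest at 1.39 ± 0.518 CPM per kb (SD, n = 3). Tbrg3 has no exon length in this annotation and was left out of that order.

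The share of non-exonic reads, out of the sum of non-exonic reads and gene counts, was 43.2, 38.5 and 44.2% in the IM control libraries and 66.7, 69.8 and 59.2% in the IM deleted libraries. Every IM deleted library was above every IM control library. In NCM the share was 66.8, 60.2 and 58.1% in control and 72.7, 71.9 and 55.1% in deleted libraries. NCM649 and NCM650 were highest and NCM661 was lowest, so the NCM groups overlapped. The NCM difference was 4.87 percentage points (two-sided exact permutation test, p = 0.4, where 3 against 3 libraries can give no p below 0.1). Leaving out 1 library put this difference between 1.83 (without NCM649) and 10.6 points (without NCM661).

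Zfp488 followed the share almost point for point across the 6 NCM libraries. Its log2 CPM had Pearson r = 0.996 (exact permutation p = 0.00139, the smallest that 6 libraries allow, adjusted p = 0.0139 over the 10 members) and Spearman rho = 1 (p = 0.00278, adjusted p = 0.0278). Without NCM649 and NCM650, the 2 libraries farthest from the median share, r was 0.989. With any 1 library left out, r was between 0.994 and 0.998, but 5 libraries gave an exact adjusted p of 0.0833. The CPM and the share both hold the total of gene counts, so they are not independent measures.

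All 10 members had r above 0 with the share in NCM, with a median of 0.684, beside a median of -0.294 over all genes tested. Only Zfp488 passed the exact permutation test after adjustment. Neat1 had r = 0.869 (exact p = 0.0333, adjusted p = 0.108, rho = 0.829 with p = 0.0583) and Nktr had r = 0.835 (exact p = 0.0278, adjusted p = 0.108, rho = 0.714 with p = 0.136). The remaining r values lay between 0.490 for Slc5a3 and 0.705 for Tbrg3. Without NCM649 and NCM650, r was still above 0 for 7 members and fell to -0.62 for Kcnq1ot1, -0.09 for Slc5a3 and -0.98 for Akap9. The relation of these 3 genes with the share thus rested on those 2 libraries. The IM libraries formed separate clusters of 3 in the share, so no r was computed for them. No r was computed within a lane, since lanes 6 and 8 held 3 NCM libraries each, too few for one.

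**Figure D3:**
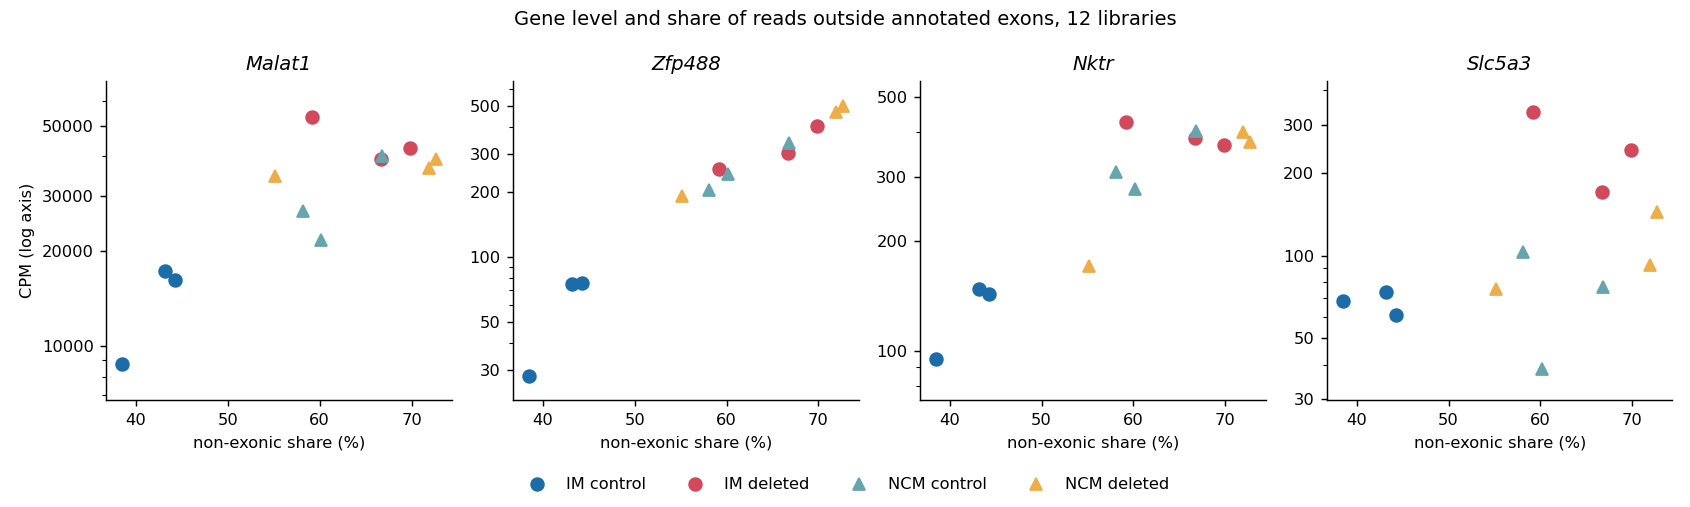
Non-exonic share (percent of the sum of both kinds of read) against CPM on a log axis for 4 members, with 1 point per library. Zfp488 rises with the share in all 6 NCM libraries, from NCM661 at 55.1% to NCM649 at 72.7%, while Slc5a3 is higher in the IM deleted than in the NCM libraries of similar share.

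The members were then counted per 1000000 non-exonic reads, called the non-exonic scale here, on which a gene whose reads rise in step with the non-exonic reads stays level. On this scale 5 of the 10 members still had non-overlapping IM groups with the deleted group higher, Neat1, Kcnq1ot1, Tbrg3, Zfp488 and Dclre1c, while 2.46% of all genes tested did. This uses the contrast that chose the genes and is a description only. Malat1 stood at 22175, 13782 and 19131 on the non-exonic scale in IM control and 21659, 19770.5 and 30035 in IM deleted, which overlapped. Neat1 stood at 131, 145 and 114 in IM control and 238, 178 and 704 in IM deleted, still apart and still led by IM661. Kcnq1ot1 stood at 179, 122 and 204 in IM control and 451, 426 and 213 in IM deleted. Here IM661 lay only just above the highest control.

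Tbrg3, on the same scale, stood at 11.5, 10.7 and 16.0 in IM control and 34.8, 29.8 and 41.0 in IM deleted. Zfp488 stood at 95.6, 44.4 and 89.5 in IM control and 168, 189 and 145 in IM deleted. Dclre1c stood at 81.8, 80.9 and 101 and 154, 112 and 145. These 3 genes remained apart between the IM groups, while Slc5a3, Akap9, Nktr and Ubn2 joined Malat1 in overlapping. Ubn2 was the most level, at 96.4 ± 10.3 in IM control and 109 ± 4.48 on the non-exonic scale in IM deleted (SD, n = 3).

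With the libraries scaled to non-exonic reads in the edgeR fit, IM log2 fold changes of the members ran from 0.17 for Ubn2 to 1.52 for Neat1, with a median of 0.58, while the median of all genes moved to -1.28. The members' median comes from the contrast that chose them. Malat1 was at 0.38, Nktr at 0.30, Akap9 at 0.51 and Slc5a3 at 0.52. Kcnq1ot1 was at 1.11, Zfp488 at 1.13 and Tbrg3 at 1.47. With the share as a covariate instead, the IM median of the members was 1.002 and that of all genes was 0.52. Neat1 then stood at 2.95 (SE 0.65), and Dclre1c fell to 0.37 (SE 0.51). The share did not overlap between the IM groups, so this fit cannot separate the share from the deletion in IM.

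In NCM, on the non-exonic scale, Kcnq1ot1 stood at 90.2, 126 and 131 in control and 237, 223 and 253 in deleted libraries. All 3 deleted libraries, NCM661 included, were well above the controls on this scale. Akap9 and Zfp488 were also apart with the deleted group higher, Zfp488 by a hair between NCM661 and NCM648, which made 3 of 10 members against 3.11% of all genes tested. Dclre1c and Nktr were apart with the deleted group lower, 2 of 10 members against 10.8% of all genes tested. Dclre1c stood at 71.3, 78.7 and 102 in control and 59.0, 69.1 and 35.5 in deleted NCM libraries. No member passed edgeR's test in NCM with this scaling, where Kcnq1ot1 had a log2 fold change of 1.04 (adjusted p = 0.184). On this scale 0 of 10 members passed the exact permutation test of r with the share, and Zfp488 had r = 0.864 (adjusted p = 0.25).

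**Figure D4:**
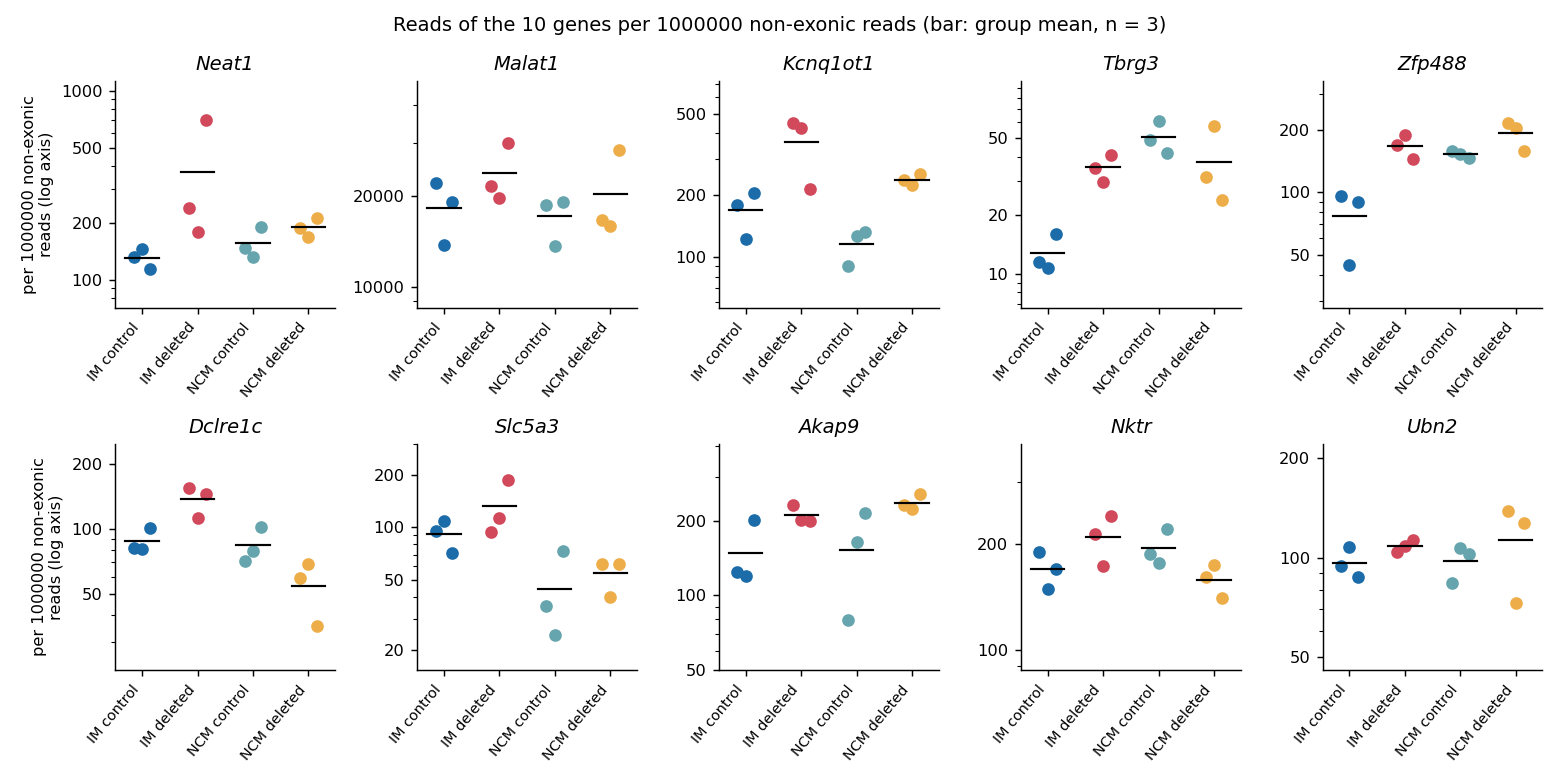
Reads of each member per 1000000 non-exonic reads, on a log axis, in each of the 12 libraries (points), with the mean of 3 libraries as a bar. Malat1, Slc5a3, Akap9, Nktr and Ubn2 overlap between the IM groups on this scale, and the other 5 genes do not.

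What most members share, beyond the values that chose them, is long exons. In GENCODE M21 the longest exon block had a median of 10079 bases over the 9 members with an annotation, beside 2015 bases over 12592 genes tested that have one. It was 93092 bases for Kcnq1ot1, 10754 for Slc5a3, 10526 for Ubn2, 10079 for Nktr and 3673 for Akap9, the shortest. Neat1, Malat1 and Kcnq1ot1 each form a single block, and Zfp488 and Slc5a3 have 2 blocks, while Akap9 is split into 47. Read over all genes, the median IM log2 fold change was -0.22 in the quintile of genes with the shortest longest block (63 to 910 bases) and 0.31 in the quintile with the longest (3564 bases and more). The steps between were -0.08, 0.02 and 0.12. In NCM the medians ran from -0.33 to 0.03 over the same quintiles. The quintile with the longest blocks held 19 of the genes called higher in IM. These 19 include all 9 annotated members, which were called by choice. The other quintiles held 3, 3, 1 and 2 such genes, from the shortest blocks up. The part of exon length in the members' IM difference was not tested.

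**Figure D5:**
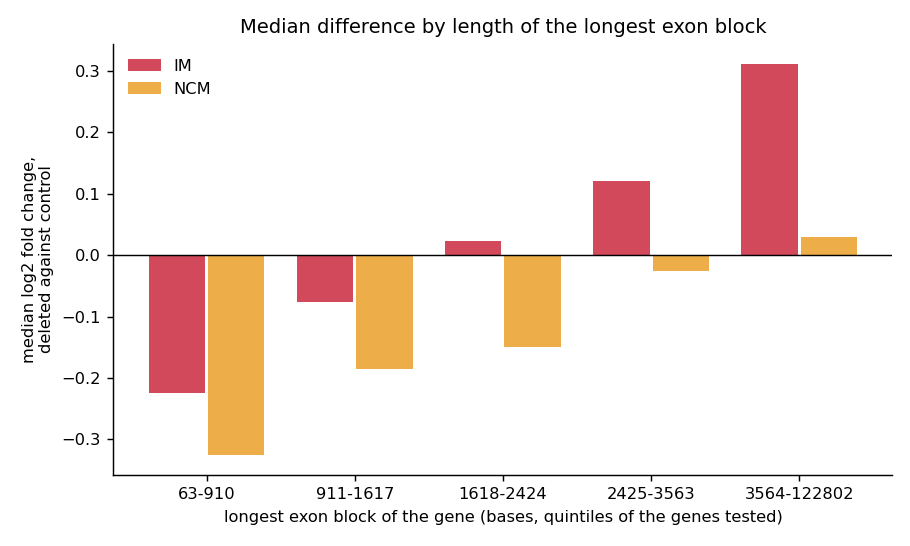
Median log2 fold change of deleted against control over all annotated genes tested, in quintiles by the length in bases of the longest exon block, for IM and NCM. The IM bars climb from -0.22 to 0.31, and the NCM bars from -0.33 to 0.03.

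Neat1 and Malat1 are each other's nearest gene on one side and, as members, were both called in IM. Apart from members, 24 genes overlap a member or lie nearest to it. Of these, 21 were tested, and edgeR called 0 of 21 in IM (3 at an unadjusted p under 0.05) and 0 of 21 in NCM (5 at an unadjusted p under 0.05). DESeq2 called 0 in IM and 2 lower in NCM, and limma-voom called 0 in both. The median log2 fold change of the 21 was 0.70 in IM and 0.60 in NCM, beside 0.07 and -0.10 over all genes tested. Both medians are the value of Gm20324, beside Tbrg3. It had 42 reads in all IM control and 38 in all IM deleted libraries, and 14 and 19 in NCM. Such medians near the floor say little about the neighbours. Among those with more reads, Luc7l2 was at 0.37 in IM and 0.29 in NCM, Krit1 at 0.71 and 0.28, Tcf20 at 0.19 and -0.47, and Cyp51 at -0.23 and -0.51. Kcnq1, the channel gene that Kcnq1ot1 overlaps, stood at 7.58 ± 4.05 CPM in IM control and 12.99 ± 2.004 CPM in IM deleted (log2 fold change 0.78, edgeR adjusted p = 0.988). Mrps6, which overlaps Slc5a3 on the same strand, stood at 13.3 ± 5.56 and 12.9 ± 7.80 CPM. Frmd8, beside Neat1, stood at 21.9 ± 1.504 and 14.1 ± 5.98 CPM. Suv39h2, a histone methyltransferase gene that overlaps Dclre1c on the opposite strand, stood at 18.4 ± 7.40 CPM in IM control and 46.8 ± 2.18 CPM in IM deleted (log2 fold change 1.35, edgeR adjusted p = 0.406). Its NCM level was 43.1 ± 1.76 CPM in control and 12.4 ± 10.5 CPM in deleted libraries (log2 fold change -1.80, edgeR adjusted p = 0.133). Akap9 overlaps Cyp51 and Nktr overlaps E530011L22Rik on the opposite strand. The strand setting of the counting is not given in the sources used here, so reads of such pairs may be split between them or dropped.

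Related genes were taken from lists. Their counts stand beside 9.84% of all genes tested at an unadjusted p under 0.05 by edgeR and 2.62% called by DESeq2 in IM, and the NCM shares given above. A list of 24 nuclear long noncoding RNAs other than the members had 17 tested, and edgeR called 0 of them in IM (5 at an unadjusted p under 0.05, 3 higher by DESeq2, 0 by limma-voom). It called 0 in NCM (3 at an unadjusted p under 0.05, 2 higher by DESeq2, 0 by limma-voom). Their median log2 fold change was 1.67 in IM, with 15 of 17 above 0, and 1.94 in NCM, with 14 of 17 above 0. Over all genes tested the medians were 0.07 and -0.10. The list's medians come from genes less abundant than its top 2 by mean level, and both of those lay below the medians in IM and in NCM. A fold change from few reads is uncertain, so the medians do not show a rise of the list as a whole. Tug1, one of the 2 most abundant genes of the list, stood at 49.3 ± 4.40 CPM in IM control and 82.5 ± 6.32 CPM in IM deleted (log2 fold change 0.74, edgeR adjusted p = 0.444). The other, 2900097C17Rik, was at 246 ± 28.1 and 243 ± 32.2 CPM (log2 fold change -0.02). Its deleted and control levels in IM thus lay within 1 SD of each other. In NCM these most abundant genes were far below the list's median. Tug1 had a log2 fold change of 0.006 there and 2900097C17Rik of 0.28 (edgeR adjusted p = 0.998 and 0.584).

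Of 28 paraspeckle protein genes, partners of Neat1, edgeR called 0 in IM (5 at an unadjusted p under 0.05, 2 higher by DESeq2), with a median log2 fold change of 0.22, and 0 in NCM (2 unadjusted, 0 by DESeq2), with a median of -0.14. Sfpq, which binds Neat1, stood at 279 ± 31.1 CPM in IM control and 412 ± 72.9 CPM in IM deleted (log2 fold change 0.56, edgeR adjusted p = 0.407). Of 33 nuclear speckle protein genes, partners of Malat1, edgeR called 0 in IM (11 unadjusted, 2 higher by DESeq2, 1 by limma-voom), with a median of 0.37, and 0 in NCM (4 unadjusted, 0 by DESeq2), with a median of -0.21. Srrm2, a core protein of speckles, stood at 654 ± 31.0 CPM in IM control and 1089 ± 26.7 CPM in IM deleted (log2 fold change 0.74, edgeR adjusted p = 0.142).

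Lists related to Kcnq1ot1 and the coding members were read the same way. EdgeR called 0 of the 12 tested genes of the Kcnq1 imprinted domain, 12 A-kinase anchoring proteins, 10 genes of nonhomologous end joining, 9 of the HIRA complex and its kin, 12 of osmolyte transport and 15 cyclophilins, in IM or in NCM. At an unadjusted p under 0.05 there were 0, 1, 2, 2, 2 and 2 genes in IM and 0, 4, 0, 0, 3 and 1 in NCM. DESeq2 called 0, 1, 0, 2, 2 and 1 in IM and 0, 3, 0, 0, 0 and 0 in NCM. The HIRA and osmolyte lists each had 1 higher and 1 lower in IM, and the cyclophilin was lower. The A-kinase anchoring genes called were higher. Limma-voom called 1 HIRA gene and 1 osmolyte gene higher and 1 cyclophilin lower in IM. Nfat5, the tonicity-responsive factor that drives Slc5a3, stood at 178 ± 18.1 CPM in IM control and 379 ± 118 CPM in IM deleted (log2 fold change 1.09, edgeR adjusted p = 0.0841). Atrx, a chromatin remodeller listed with the HIRA complex, stood at 287 ± 29.3 and 556 ± 18.1 CPM (log2 fold change 0.95, edgeR adjusted p = 0.0905). Of 13 tested host genes of small nucleolar RNAs, edgeR called 0 in either cell type (1 unadjusted in IM and 0 in NCM, 0 by DESeq2), with a median log2 fold change of 0.68 in IM and -0.71 in NCM. Rpph1 and Rmrp, the RNAs of RNase P and RNase MRP, stood in the same list and are no such hosts. Their log2 fold changes were -0.81 and -1.20 in IM (edgeR adjusted p = 0.842 and 0.556) and -1.62 and -1.45 in NCM (edgeR adjusted p = 0.241 and 0.250). A list of 26 symbols for mitochondrially encoded messenger RNAs had 0 rows in the count tables, so these RNAs could not be analysed.

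Abundant cytoplasmic messenger RNAs had lower values in the deleted libraries. Of 18 housekeeping messenger RNAs tested, edgeR called 3 lower in IM deleted, Actb, Eef1a1 and Gnb2l1, and 0 higher, and all 18 had values below 0, with a median of -0.97. Actb, the cytoskeletal actin, stood at 8056 ± 814 CPM in IM control and 3517 ± 727 CPM in IM deleted (log2 fold change -1.20, edgeR adjusted p = 0.0447). In NCM, 5 of 18 were lower, among them Actb, Gapdh, Gnb2l1 and Rps3, again with all 18 below 0 and a median of -0.96. DESeq2 called 14 lower in IM and 10 lower in NCM. The summed level of the list was 24502 to 27122 CPM in control and 11008 to 15057 CPM in deleted IM libraries, and 15981 to 19479 CPM in control and 7938 to 9219 CPM in deleted NCM libraries. Their sum was thus lower in every deleted library of either cell type than in every control of that type, while the members were apart in IM and, for 8 of 10, overlapped in NCM.

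Genes whose pattern over the 12 libraries was most like the mean of the members, among 6033 genes at a mean of 4 or more on the log2 CPM scale, were Pi15 (r = 0.966), Cep68 (r = 0.946), Bptf (r = 0.944), Mycbp2 (r = 0.943) and Clasp1 (r = 0.941). The points share library depth, cell type and the IM contrast that chose the members, and the values are a description. Pi15 encodes a secreted peptidase inhibitor and stood at 10.4 ± 3.91 CPM in control and 45.6 ± 1.74 CPM in deleted IM libraries, and at 26.6 ± 7.20 CPM in control and 42.5 ± 20.4 CPM in deleted NCM libraries. Bptf, a subunit of the NURF chromatin remodeller, stood at 208 ± 21.5, 424 ± 49.99, 370.1 ± 55.0 and 389 ± 39.3 CPM in the same order. Among the members themselves, log2 CPM of all 45 pairs correlated above 0 over the 12 libraries, with a median r of 0.794, but these libraries include the IM libraries whose difference chose every member. Nktr was closest to the mean of the other 9 (r = 0.943) and Slc5a3 farthest (r = 0.637). Over the 6 NCM libraries alone, 42 of 45 pairs were above 0, with a median of 0.541.

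Markers of the sorted cells and of other lung cells also differed between the groups. The summed level of 20 interstitial macrophage markers was 28320 to 32298 CPM in IM control and 16283 to 22735 CPM in IM deleted, though edgeR called 0 of 20 (4 unadjusted, 0 by DESeq2, 2 lower by limma-voom). In NCM the same sum was 4307 to 6655 CPM in control and 2204 to 3041 CPM in deleted libraries, again apart, and edgeR called 0 of 20 (13 unadjusted, 6 lower by DESeq2, 2 lower by limma-voom). C1qa stood at 432 ± 166 CPM in IM deleted, below its IM control level. Mrc1, another marker of the list, stood at 1939 ± 166 CPM in IM control and 2003 ± 534 CPM in IM deleted. Of the 20, 4 had a log2 fold change above 0 in IM and 2 in NCM. The summed level of 17 endothelial markers was 843 to 2641 CPM in IM control and 889 to 3139 CPM in IM deleted, which overlap. In NCM it was 971 to 2654 CPM in control and 3378 to 7935 CPM in deleted libraries, highest in NCM661, and edgeR called 0 of 17 (12 unadjusted, 10 higher by DESeq2, 0 by limma-voom). NCM661 thus had the highest endothelial sum and the lowest non-exonic share among the NCM libraries, and the lowest levels of Tbrg3, Zfp488, Dclre1c and Nktr. Of 16 nonclassical monocyte markers, edgeR called 1 lower in NCM deleted, Cebpb (8 unadjusted, 2 by DESeq2), and 0 in IM (5 unadjusted, 0 by DESeq2). Their sum was 11329 to 18532 CPM in control and 5094 to 10431 CPM in deleted NCM libraries, and 4350 to 4787 CPM in control and 2959 to 3719 CPM in deleted IM libraries. EdgeR called 0 markers in either cell type from the lists of epithelial cells, fibroblasts and smooth muscle, lymphocytes, alveolar macrophages, neutrophils, and erythroid cells and platelets (1, 0, 1, 2, 0 and 0 unadjusted in IM, and 0, 2, 1, 1, 1 and 0 in NCM). DESeq2 called 0 of these in IM and, in NCM, 0, 1, 1, 1, 1 and 0. The summed levels of these 6 lists overlapped between the groups, except for alveolar macrophage markers in IM, at 1800.2 to 2013 CPM in control and 717 to 1628 CPM in deleted libraries. No defining marker of endothelium (Cdh5, Pecam1) was at 0 in any group. The part of cell makeup in the members' values was not tested.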

How the data were processed

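RNA of 12 libraries was sequenced with a total RNA kit that marks the strand and takes low input, per the labels' protocols. The authors deposited raw read counts per gene, 1 table per library with 26608 gene rows and 5 summary rows. The submitters' processing notes name HTSeq 0.6.0, TopHat2 2.1.1 and cutadapt 1.12, and the build GRCm38 (mm10). For their roles, the annotation and the strand setting, the sources used here give nothing. The summary rows stayed out of library sizes and tests. The non-exonic row held between 34.4 and 69.0% of all reads of a library. Total RNA keeps unspliced and nuclear RNA, which a library of polyadenylated RNA would hold less of.

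Fits were made in R 4.3.3 (DESeq2 1.42.0, limma 3.58.1, edgeR 4.0.16) and permutation tests in Python 3.11.15 (scipy 1.17.1). Genes were kept by filterByExpr (minimum count 10), which left 14254. A robust quasi-likelihood fit with TMM factors and 4 group means covered all 12 libraries, and p-values were Benjamini-Hochberg adjusted over all genes tested, with a threshold of 0.05. The pipeline was tested on simulated data. Positions and exon lengths came from GENCODE M21 (Tbrg3 from RefSeq), promoters from RefSeq GRCm38.p6.

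The members and the 21 gene lists were chosen with earlier results of these data known. All members are described. From lists, genes past the test are named (up to 4 per list and contrast), otherwise up to 2 by level, and not all of these are printed. Neighbours are genes that overlap a member or lie nearest on each side. The 5 most similar genes pass over systematic names. The alternatives tried were DESeq2, limma-voom, DESeq2's size factors, no count filter, lane or non-exonic share as covariate, scaling to non-exonic reads, library sizes without Malat1, only the 6 libraries of a cell type, a replicate block and leaving out each library.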

Additional observations from a re-analysis of the deposited data

How the results depend on the processing

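The number of genes past edgeR's test changed widely with the processing. In NCM it was 60, against 153 with no filter on low counts, 3 with lane as covariate, 351 with the non-exonic share as covariate, 20 when scaled to non-exonic reads, 0 with the 6 NCM libraries alone (1100 at an unadjusted p under 0.05), 953 with DESeq2 and 195 with limma-voom. Leaving out 1 library gave 4 to 570. In IM it was 41, against 77, 0 (1150 unadjusted), 0 (1567 unadjusted), 2802, 950, 373 and 180 under the same settings, and 0 to 234 with 1 library left out. The cause of these shifts was not tested. A member passed in NCM, Kcnq1ot1 alone, with no filter (1 member), with DESeq2 (1 member) and without NCM661 (0 to 1 members over the libraries left out). The count of members whose level passed the test with the non-exonic share was 1, and 0 per 1000000 non-exonic reads and with any 1 NCM library left out, where fewer libraries limit the exact p. Nktr in NCM turned from -0.07 to 0.0796 with DESeq2's size factors, 0.0445 with no filter, 0.052 with the 6 NCM libraries alone and 0.0795 with DESeq2. With 1 library left out, it ranged from -0.28 to 0.23, Tbrg3 from -0.77 to 0.24, Dclre1c from -0.64 to 0.0807 and Ubn2 from -0.0296 to 0.58. Per 1000000 non-exonic reads, r with the share turned to -0.20 for Neat1, -0.53 for Malat1, -0.14 for Slc5a3, -0.14 for Akap9, -0.0045 for Nktr and -0.31 for Ubn2. Every member kept an IM log2 fold change above 0 under the 22 alternatives run, from 0.17 (Ubn2, scaled to non-exonic reads) to 3.12 (Neat1). The IM contrast chose the members, so this is a description only. Of 604 alternative values, 509 kept their direction and their side of the threshold, or moved by less than the spread. Among the 509, 202 are IM log2 fold changes of the members, the contrast that chose them. Leaving out a library of 1 cell type can hardly move a value of the other. Malat1 in IM, for example, was at 1.675 with or without NCM648. The total is thus no measure of how firm the results are.

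Label numbers shared by IM and NCM libraries were checked as pairs. Deviations from the group means of the 5 shared numbers correlated between -0.07 and 0.08, and 2 of 5 IM libraries correlated best with their own number, so the numbers were not used as pairs. With the number as a replicate block, limma-voom called 196 genes in NCM and 180 in IM, against 195 and 180 without it. With a fixed block in edgeR, the median difference of effects of the members was 1.84 in place of 1.52. Depth limits were not reached, since every member was counted in every library, but 3 libraries a group leave wide intervals in NCM.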
